A study of Mus musculus with 12 samples.

Results

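The NR4A, EGR, NFAT and TOX transcription factors were followed in the transcriptome of mouse CD8+ T cells through 8 genes: Nr4a1, Nr4a2, Nr4a3, Egr1, Egr2, Egr3, Nfatc1 and Tox. They were taken from the gene count table by symbol. Each symbol had 1 row, and these were 8 of 13780 genes. All 8 were among the 13767 genes that passed the expression filter, at least 1 CPM (counts scaled to library size) in 3 or more libraries. There were 12 libraries in 3 groups of 4. Naïve cells were lysed straight after positive magnetic selection of CD8+ cells from the spleens of C57BL/6J mice aged 8 to 12 weeks. Media cells were activated for 72 h with anti-CD3/CD28 Dynabeads and recombinant human IL-2 at 10 U/ml in plain medium, and NaLac cells were activated in the same way with 40 mM sodium lactate. No group carried a genetic change. The comparison of NaLac with media addresses what lactate changes in activated cells, and naïve cells are the control for activation. Plain medium was the control, so sodium and osmolality cannot be told apart from lactate in these libraries.

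These factors lie early on the path from the T cell receptor to the nucleus. Calcium entering the cell activates the phosphatase calcineurin, which lets cytoplasmic NFAT proteins move into the nucleus, and the RAS-ERK route acts through serum response factor and its partners on the EGR genes. The NR4A genes encode orphan nuclear receptors and, like the EGR genes, are immediate early genes, whose transcripts appear soon after stimulation and decay quickly. NR4A factors, EGR2, EGR3 and TOX are known in T cells for their part in restraint, anergy and exhaustion.

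The proximal promoters of the NR4A genes and Egr2 are shown because the 3 NR4A genes, which are one family of immediate early genes, differed in how their transcripts moved between the groups. The 250 bases before the start site are given 5′ to 3′ from RefSeq on GRCm38.p6: chr15:101266596-101266845 on the plus strand for Nr4a1, chr2:57124004-57124253 on the minus strand for Nr4a2, chr4:48045055-48045304 on the plus strand for Nr4a3 and chr10:67537619-67537868 on the plus strand for Egr2, whose window is the one of 5 nearest to the start of its principal transcript. Capitals mark the core of the cAMP response element (TGACG, which reads CGTCA on the other strand) and, in Egr2, also the CArG box bound by serum response factor.
Nr4a1: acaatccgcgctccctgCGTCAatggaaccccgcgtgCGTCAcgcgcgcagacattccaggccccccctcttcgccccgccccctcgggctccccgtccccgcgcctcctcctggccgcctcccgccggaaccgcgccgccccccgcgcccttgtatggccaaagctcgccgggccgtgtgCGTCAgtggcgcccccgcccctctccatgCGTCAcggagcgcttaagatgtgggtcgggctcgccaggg
Nr4a2: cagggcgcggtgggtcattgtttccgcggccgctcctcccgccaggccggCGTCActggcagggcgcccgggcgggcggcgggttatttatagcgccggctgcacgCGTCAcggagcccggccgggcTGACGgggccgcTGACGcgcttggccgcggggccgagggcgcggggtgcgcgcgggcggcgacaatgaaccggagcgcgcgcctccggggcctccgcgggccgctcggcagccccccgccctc
Nr4a3: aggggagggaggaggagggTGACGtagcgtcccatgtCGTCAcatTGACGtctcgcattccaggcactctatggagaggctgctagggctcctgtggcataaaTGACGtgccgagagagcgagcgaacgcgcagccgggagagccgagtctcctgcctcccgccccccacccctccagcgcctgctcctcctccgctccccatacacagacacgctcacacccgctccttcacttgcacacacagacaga
Egr2: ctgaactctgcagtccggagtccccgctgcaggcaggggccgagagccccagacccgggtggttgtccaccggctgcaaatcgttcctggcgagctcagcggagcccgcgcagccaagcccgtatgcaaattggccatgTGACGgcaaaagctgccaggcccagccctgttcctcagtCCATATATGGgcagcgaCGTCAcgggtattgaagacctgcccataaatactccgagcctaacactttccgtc
Each NR4A window held 4 of these cores, whereas 0.137% of 32851 promoter windows of the same length held 4 or more and 17.8% held at least 1. The Egr2 window held 2 cores and 1 CArG box, CCATATATGG at -72 to -63 from the start site, a motif found in 1.47% of windows. The letters of the NFAT core (GGAAA, either strand) occurred 1 time each in the windows of Nr4a2 and Egr2, and in 55.6% of all windows. The full cAMP response element (TGACGTCA, which contains the core on both strands), the AP-1 site (TGANTCA), the EGR site (GCGTGGGCG) and the NR4A monomer site (AAAGGTCA), each searched on both strands, were in none of the 4 windows and in 1.55%, 6.75%, 0.536% and 1.34% of all windows. The promoters of Egr3 and Tox are not shown.

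The depth was 16439750 to 18601223 counts in the naïve libraries, 15842423 to 20922872 in media and 14726904 to 21478137 in NaLac. By the number in their names the libraries fall into 2 sets, called library runs here although the labels do not say what the numbers mark: 8 low-numbered libraries, and naïve 4, media 4, NaLac 3 and NaLac 4 with high numbers. Naïve 4, the only naïve library with a high number, stood apart: 17.4% of genes lay more than 2-fold from the mean of the other naïve libraries, against 5.21% to 7.05% for the other 3. Results that change without it are therefore given both ways. The 6 CD8 T cell markers summed to 1991 to 4036 CPM in naïve cells, with the lowest sum in naïve 4, 3095 to 3879 in media and 2303 to 2901 in NaLac, where 3 of the 6 (Cd3e, Cd3d and Cd3g) were called lower than in media. The naïve libraries also held transcripts of other cell types. The 4 B cell markers summed to 392 to 954 CPM in naïve cells, 8.14 to 14.7 in media and 5.23 to 7.44 in NaLac, and the 5 myeloid markers to 458 to 1506, 11.9 to 18.7 and 5.18 to 10.6. The 3 globin genes measured summed to 75.7 to 2939 CPM in naïve cells and at most 1.74 in activated cells. Dendritic cell and natural killer cell markers were likewise higher in naïve cells (24.6 to 55.7 and 3.13 to 8.00 CPM) and below 1 CPM in activated cells, where the dendritic cell genes Xcr1 and Siglech were at 0 in all 8 libraries. Of the 2 CD4 T cell markers, Cd4 itself averaged 22.1 CPM in naïve cells, 0.348 in media and 0.541 in NaLac, and Zbtb7b ran the other way, at 22.1, 47.4 and 81.4 CPM, and was called higher in NaLac than in media (log2 0.78, adjusted p = 0.00417). The part of these marker differences in the results was not tested.

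Of the 8 genes, Nr4a1 alone passed the test in the comparisons with naïve cells, where it was lower in activated cells, and none passed between NaLac and media in the model without donors. The test was edgeR's quasi-likelihood test at an adjusted p of at most 0.01. Between NaLac and media 0 of 8 were called, against 25.1% of all tested genes, and Nr4a1 and Tox did not overlap between the groups, as was so for 44.7% of all genes. At an unadjusted p under 0.05 there was 1 of 8, Nr4a1. DESeq2, which gave 7 of the 8 an adjusted p, and edgeR's likelihood ratio test each called that gene, and limma voom called 0. How many of all genes these other tests called is not given here. Media against naïve called 1 of 8, with 57.5% of all genes called and 61.2% without overlap. NaLac against naïve likewise called 1 of 8, with 65.0% called and 67.8% without overlap. These comparisons share the naïve libraries. Without naïve 4, 2 of the 8 were called in media against naïve (1 higher, 1 lower), 3 in NaLac against naïve (2 higher, 1 lower) and 1 in NaLac against media (lower), where 61.5%, 68.5% and 35.1% of all genes were called.

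**Figure D1:**
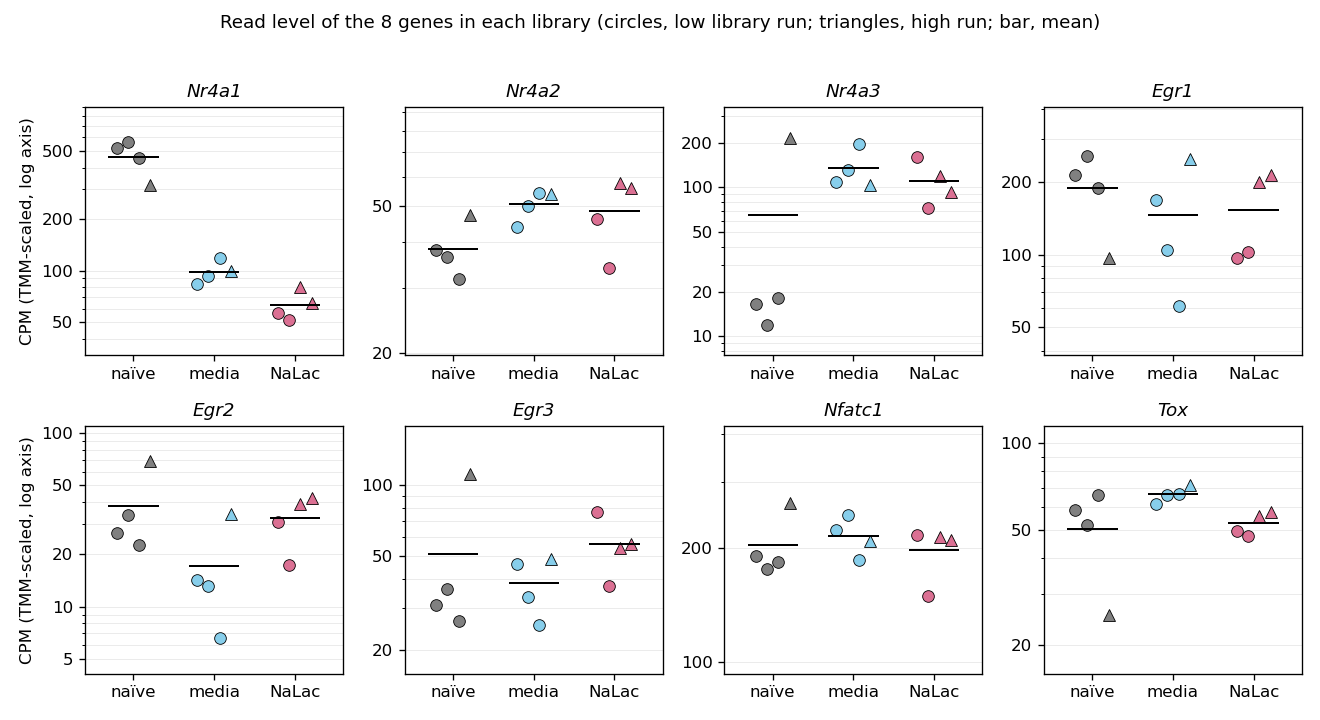
CPM of the 8 genes (log axis) in each of the 12 libraries by group, with circles for low-numbered libraries (low run), triangles for high-numbered ones (high run) and a bar at the mean of 4. Nr4a1 is lower in every activated library than in every naïve library, naïve 4 lies far above the other naïve libraries for Nr4a3 (216 CPM) and Egr3 (111 CPM), and NaLac lies below media without overlap for Nr4a1 and Tox.

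Donor tags in the labels tie 3 media libraries to 3 NaLac libraries from the same mice, and with the donor as a block in the model 3 of the 8 were called between NaLac and media, against 27.4% of all genes in that model (14.7% higher and 12.6% lower). Nr4a1 was lower by 0.77 on the log2 scale (adjusted p = 0.00245), Egr2 was higher by 0.91 (adjusted p = 0.00622) and Egr3 was higher by 0.51 (adjusted p = 0.00877). Tox was 0.36 below media and did not pass (adjusted p = 0.0155). Each of these 4 moved the same way in 3 of 3 donors. How many of all tested genes did so was not counted, so no background stands beside this. Nr4a2, Nr4a3, Egr1 and Nfatc1 moved one way in 2 donors and the other way in 1. Media 2 and NaLac 3, which have no partner, add nothing to the contrast in that model.

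**Figure D2:**
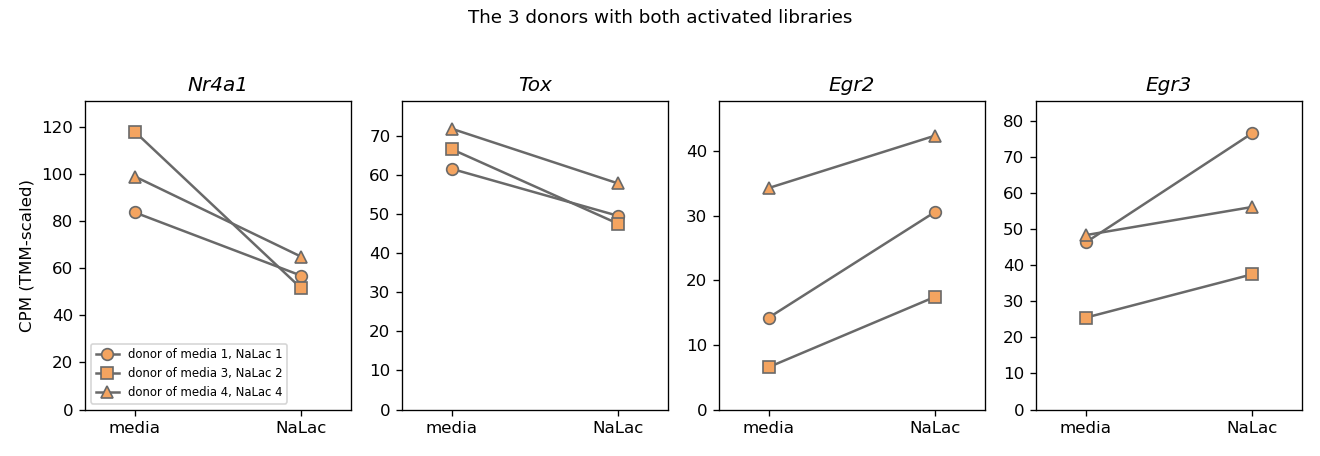
CPM of Nr4a1, Tox, Egr2 and Egr3 in the media and NaLac library of the 3 donors that gave both, each line being 1 donor. Nr4a1 and Tox are lower with NaLac in 3 of 3 donors, and Egr2 and Egr3 are higher in 3 of 3. The factors that moved both ways among the donors are not drawn.

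Nr4a1 (chr15:101254269-101274795, plus strand, GRCm38), which encodes the orphan receptor NUR77 and is widely used as a reporter of T cell receptor signalling, had the highest level per length of the 8 genes in naïve cells, 448 ± 91.7 TPM (counts scaled to gene length and library size; SD, n = 4). Its CPM was 523, 563, 452 and 318 in the naïve libraries, 83.7, 93.5, 118 and 99.0 in media and 56.9, 51.5, 79.7 and 64.9 in NaLac. The naïve libraries were the highest, every NaLac library was below every media library, and none of the groups overlapped. Media was 4.71-fold below naïve (log2 -2.23 ± 0.19 SE, adjusted p = 5.81e-07), and NaLac was 7.33-fold below naïve (log2 -2.87 ± 0.20, adjusted p = 6.35e-08). NaLac was 1.56-fold below media (log2 -0.64 ± 0.18, adjusted p = 0.0153), which missed the threshold, and the exact permutation test gave its smallest possible value for 4 against 4, p = 0.0286. The difference was -0.85 within the low-numbered libraries and -0.46 within the high-numbered ones, where media has 1 library. Naïve 4 had the lowest naïve level, and without it the adjusted p for NaLac against media was 0.00312, below the threshold. Without NaLac 3 it was 0.0096. In bulk RNA, fewer cells expressing a gene and less RNA per cell cannot be told apart, and the part of the other cell types' transcripts in the naïve level was not tested.

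Nr4a3 (chr4:48045153-48086447, plus strand), which encodes NOR1, was higher in activated cells than in 3 of the 4 naïve libraries. Its CPM was 16.4, 12.0, 18.1 and 216 in naïve cells, 108, 130.0, 195 and 104 in media and 160.0, 72.8, 118 and 92.8 in NaLac. Naïve 1 to 3 were far below all activated libraries, whereas naïve 4 was above them all. With all libraries, media against naïve was 1.03 ± 0.77 on the log2 scale (adjusted p = 0.251) and NaLac against naïve was 0.76 ± 0.76 (adjusted p = 0.385). Without naïve 4 both passed, at 3.11 (adjusted p = 3.09e-06) and 2.84 (adjusted p = 4.48e-06). NaLac and media overlapped throughout, with a difference of -0.27 and a 95% interval from -1.76 to 1.21. The spread behind that interval was estimated over all 12 libraries, naïve 4 among them. The SD was 153% of the mean CPM in naïve cells, 31.5% in media and 33.9% in NaLac. Nr4a2 (chr2:57106830-57124003, minus strand), which encodes NURR1, differed least between the groups in this family. Its CPM was 38.0, 36.5, 31.7 and 47.3 in naïve cells, 44.0, 49.9, 54.2 and 54.0 in media and 46.1, 34.1, 57.9 and 56.1 in NaLac. The groups overlapped, and NaLac differed from media by -0.06 (95% interval -0.39 to 0.27). Media was 0.40 ± 0.17 above naïve (adjusted p = 0.0515).

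The make-up of the NR4A family per length did not overlap between naïve and activated libraries, although the exact test of 4 against 4 cannot reach the threshold of 0.01 used for genes. Nr4a1 made up 92.5%, 93.6%, 92.2% and 65.5% of the summed NR4A TPM in the naïve libraries, 42.2% to 48.0% in media and 29.9% to 41.7% in NaLac. Nr4a3 made up 1.70%, 1.17%, 2.17% and 26.1% in naïve cells, 29.4% to 41.0% in media and 32.4% to 49.2% in NaLac. The family sum was 474 to 559 TPM in naïve cells, 187 to 280 in media and 114 to 180 in NaLac, without overlap in each pair of groups. For the sum and for the share of Nr4a1, the exact permutation test gave p = 0.0286 in every comparison, and over the 12 family measures the adjusted p was 0.049 for each activated group against naïve and 0.0571 for NaLac against media. For the share of Nr4a3 the exact permutation test gave p = 0.0286 against naïve cells for each activated group and p = 0.657 between NaLac and media.

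**Figure D3:**
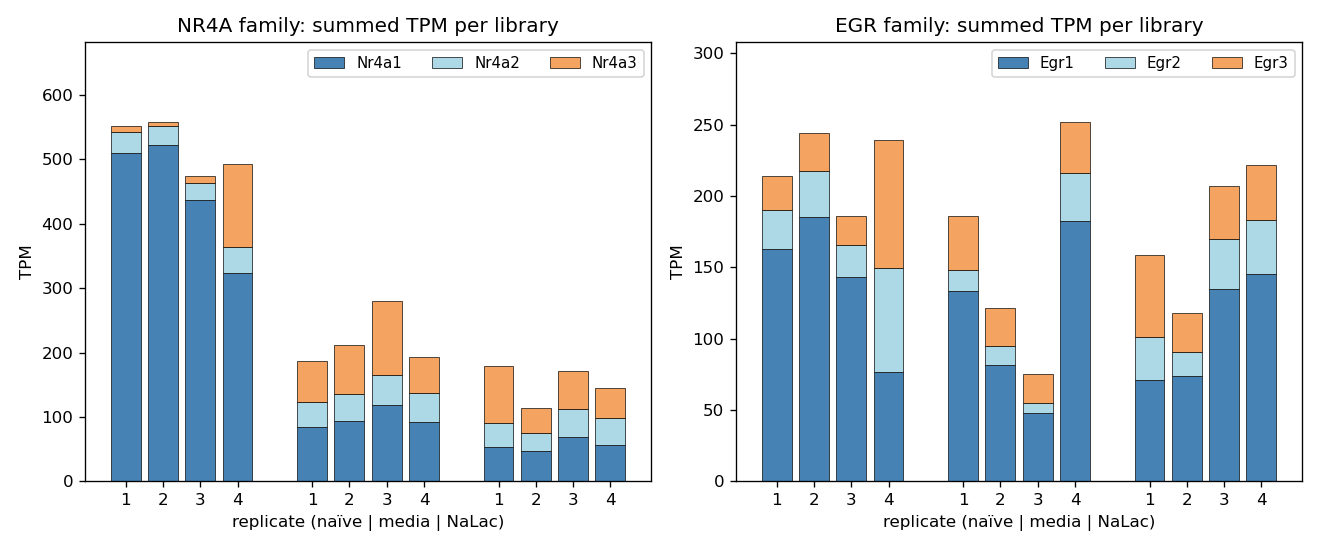
Summed TPM of the NR4A genes (left) and of the EGR genes (right) in each library, stacked by gene, with replicates 1 to 4 of naïve, media and NaLac from left to right. The naïve NR4A bars (474 to 559 TPM) are mostly Nr4a1, the activated ones are split between Nr4a1 and Nr4a3, and naïve 4 has a larger part of Nr4a3, Egr2 and Egr3 than the other naïve libraries.

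Egr1 (chr18:34859823-34864984, plus strand), the best known EGR zinc finger factor and a direct target of the ERK route, varied widely within each group. Its CPM was 214, 255, 189 and 96.6 in naïve cells, 169, 104, 61.4 and 248 in media and 96.6, 103, 199.6 and 213 in NaLac. No comparison separated the groups, and NaLac against media was 0.07 with a 95% interval from -0.75 to 0.89. The levels moved with the library run: the 3 activated libraries with high numbers had 199.6 to 248 CPM and the 5 with low numbers 61.4 to 169.

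Egr2 (chr10:67535475-67542188, plus strand), which is linked to T cell anergy, was lowest in media. Its CPM was 26.7, 33.6, 22.6 and 69.1 in naïve cells, 14.2, 13.2, 6.58 and 34.3 in media and 30.6, 17.5, 39.3 and 42.4 in NaLac. Media 4 was above 2 of the NaLac libraries, so the groups overlapped. Without donors in the model NaLac was 1.90-fold above media (log2 0.93 ± 0.48, adjusted p = 0.143), with the donor block it passed as given above, and with the library run as a term it was 0.76 (adjusted p = 0.0386). The high-numbered activated libraries had 34.3 to 42.4 CPM and the low-numbered ones 6.58 to 30.6. Media was 2.23-fold below naïve (log2 -1.16 ± 0.48, adjusted p = 0.047), and without naïve 4 the difference was -0.70 (adjusted p = 0.178). With the library run as a term it was -1.20 and passed (adjusted p = 0.00169).

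Egr3 (chr14:70077203-70082614, plus strand), which shares the restraining role of Egr2, had 31.1, 36.2, 26.6 and 111 CPM in naïve cells, 46.3, 33.4, 25.5 and 48.3 in media and 76.6, 37.5, 54.2 and 56.1 in NaLac. NaLac was higher than media on average but 1 NaLac library, NaLac 2, lay among the media libraries. The difference was 0.55 ± 0.41 without donors in the model (adjusted p = 0.32) and passed with the donor block. Against naïve cells, NaLac was 0.13 above (adjusted p = 0.784) with all libraries and 0.84 above (adjusted p = 0.00947) without naïve 4. Of the summed EGR TPM, Egr2 made up 12.1% to 30.3% in naïve cells, 8.01% to 13.2% in media and 14.1% to 18.8% in NaLac. NaLac and media did not overlap in that share (exact permutation p = 0.0286, adjusted p = 0.0571 over the 12 family measures).

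**Figure D4:**
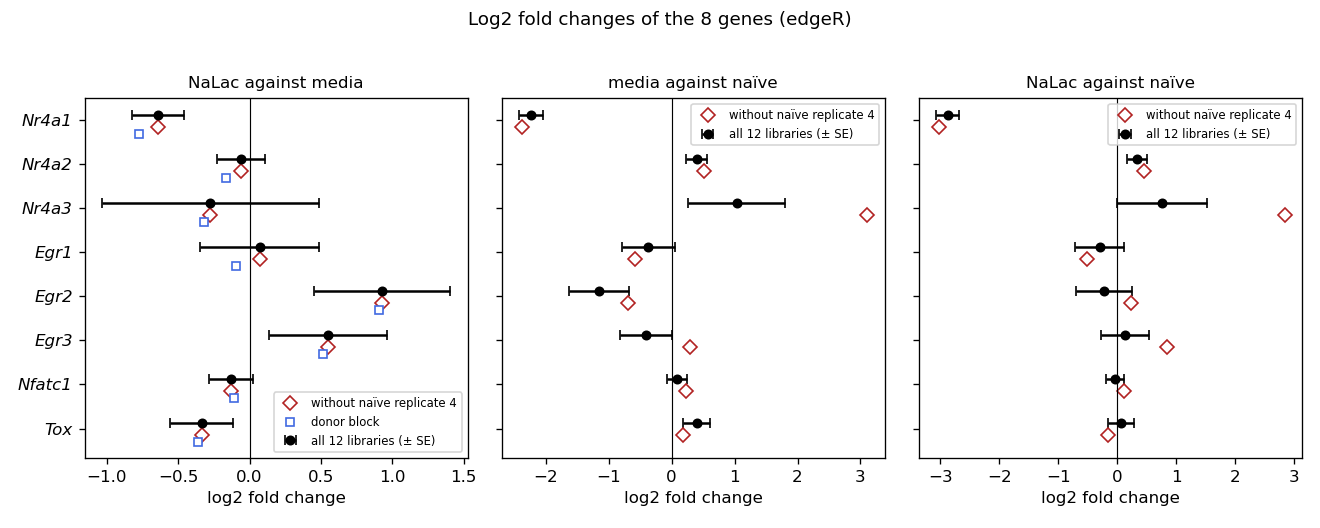
Log2 fold changes of the 8 genes in the 3 comparisons, with filled circles and bars for the model of all 12 libraries and its SE, diamonds for the model without naïve 4 and, in the first panel, squares for the model with a donor block. Leaving out naïve 4 moves Nr4a3 from 1.03 to 3.11 for media against naïve, and the donor block moves Nr4a1 from -0.64 to -0.77 for NaLac against media.

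Other immediate early genes also differed by library number. Among the 8 activated libraries, 13 of 20 other immediate early genes were higher in every high-numbered library than in every low-numbered one, as were 2 of the 8 factors, Egr1 and Egr2. Over all tested genes 8.84% separated the runs in either direction. Fos, the AP-1 subunit that defines the class, had 48.1 to 54.6 CPM in the former and 1.18 to 3.49 in the latter, and Jun, its partner, had 233 to 313 and 19.9 to 32.9. For Fos the order was reversed in naïve cells, with 2713, 2388 and 2530 CPM in naïve 1 to 3 and 34.6 in naïve 4. Of the 20 genes, 14 were more than 2-fold lower in naïve 4 than the mean of the others, against 12.8% of all genes. Naïve 4 was below every other naïve library for 16 of the 20 and above for 3, Gadd45b, Nfkbia and Dusp2. Among the 8 factors, naïve 4 was above every other naïve library for 5 and below for 3, as it lay outside the other 3 for 76.6% of all genes, with Nr4a3 at 13.9 times, Egr3 at 3.54 times and Egr2 at 2.50 times the mean of the others, and Egr1 and Tox at 0.441 and 0.430 times. The part of the library run in these levels was not tested. An edgeR model of all 12 libraries gave NaLac its own library run term beside 1 run term shared by naïve and media. For the NaLac term 0 of 13767 genes passed (0%), 530 had an unadjusted p under 0.05, and the adjusted p of the 8 genes ranged from 0.919 to 1. Naïve 4 enters the shared term, so this does not compare the difference between NaLac and media across the runs.

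**Figure D5:**
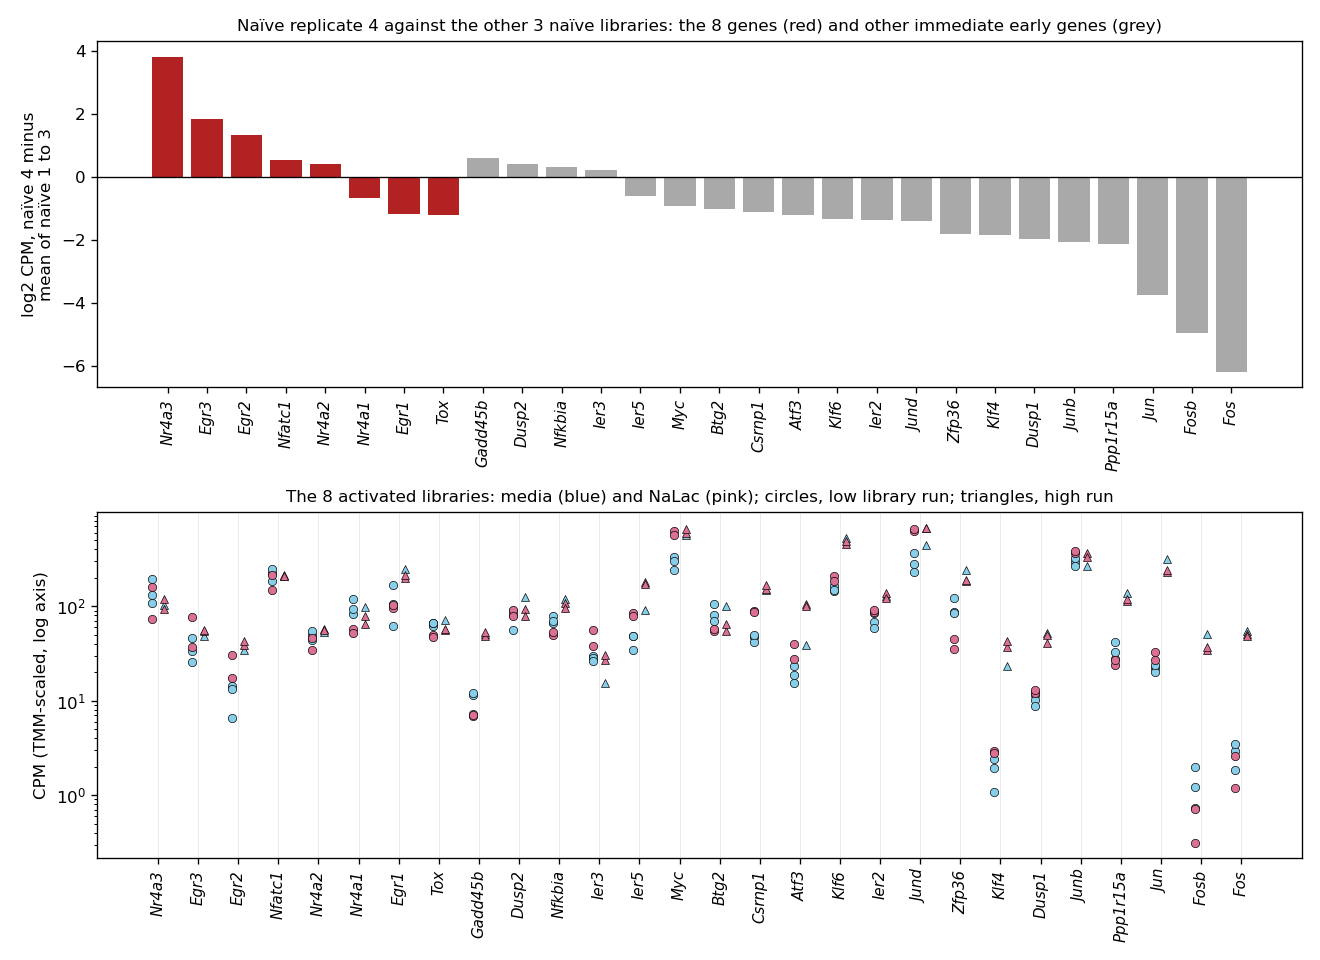
Above, log2 CPM in naïve 4 minus the mean of naïve 1 to 3 for the 8 genes (red) and 20 other immediate early genes (grey). Below, CPM (log axis) of the same genes in the 8 activated libraries, media in blue and NaLac in pink, with circles for low-numbered libraries (low run) and triangles for high-numbered ones (high run). Fos lies at 1.18 to 3.49 CPM among the circles and 48.1 to 54.6 among the triangles.

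Media against naïve called 14 of the 20 immediate early genes lower, against 29.0% of all genes called lower, and 1 higher, Ier3 (log2 1.74 ± 0.26, adjusted p = 5.88e-05). The median over the list was -2.27, against -0.03 over all genes. Without naïve 4 the counts were 16 lower and 1 higher, where 61.5% of all genes were called in either direction. NaLac against naïve called 12 lower, against 32.0% of all genes, and 2 higher, Ier3 and Myc. Between NaLac and media 0 were called by edgeR, against 25.1% of all genes, and 6 had an unadjusted p under 0.05. The likelihood ratio test called 3, DESeq2 called 4 of the 19 with an adjusted p and limma voom called 0. The shares of all genes called by those tests are not given here. The donor block called 6 higher, against 14.7% of all genes, and 2 lower, against 12.6%. Ier3 (0.81, adjusted p = 0.00326) and Myc (0.69, adjusted p = 0.00604) were among those higher with the donor block.

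Nfatc1 (chr18:80606205-80713071, minus strand), an NFAT protein whose gene is itself induced by NFAT in T cells, did not pass the test in any comparison. Its CPM was 190.2, 176, 184 and 263 in naïve cells, 223, 245, 187 and 208 in media and 216, 149, 215 and 209.6 in NaLac. All groups overlapped, with the highest value in naïve 4 and the lowest in NaLac 2. The 95% intervals of the log2 differences were -0.43 to 0.17 for NaLac against media and -0.22 to 0.39 for media against naïve.

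Nfatc3, the NFAT gene with the largest share of the summed TPM of Nfatc1, Nfatc2 and Nfatc3 in naïve cells, had a mean of 428 CPM in naïve cells, 330 in media and 219 in NaLac. It was lower in NaLac than in naïve cells (log2 -0.96 ± 0.19, adjusted p = 0.00049), and NaLac lay below media without overlap but missed the threshold (log2 -0.59 ± 0.19, adjusted p = 0.025), which it passed without naïve 4 (adjusted p = 0.00268). Nfatc2, the NFAT1 protein of resting T cells, was higher in NaLac than in naïve cells (log2 0.54 ± 0.15, adjusted p = 0.00538), a call lost under 10 of 24 alternatives, and differed from media by 0.27 (adjusted p = 0.179). Per length, Nfatc3 made up 48.9% to 56.5% of the sum of these 3 genes in naïve cells, 40.7% to 45.4% in media and 32.6% to 34.7% in NaLac. Nfatc2 made up 5.49% to 12.3%, 12.5% to 13.2% and 17.0% to 19.5%, and Nfatc1 38.0% to 39.4%, 41.4% to 46.2% and 45.8% to 49.0%. For Nfatc2 and Nfatc3 no pair of groups overlapped (exact permutation p = 0.0286 each, adjusted p of 0.049 against naïve and 0.0571 for NaLac against media over the 12 measures). Nfat5, the osmotic stress member, differed from media by 0.13 in NaLac (95% interval -0.27 to 0.53), and Rcan1, a calcineurin inhibitor induced by NFAT, by 0.26 (95% interval -0.15 to 0.66).

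Of 27 tested genes of the NFAT and calcineurin pathway, 5 were higher and 7 lower in NaLac than in media, where 13.9% of all genes were called higher and 11.1% lower. The median log2 difference was -0.07 over the list and 0.00 (-0.00158) over all genes. Those higher included Homer3, a scaffold that binds NFAT (1.15 ± 0.18, adjusted p = 0.000429), the calcineurin regulator Rcan3 (1.01 ± 0.26, adjusted p = 0.00859), the calcium channel subunit Orai1 (0.90 ± 0.21, adjusted p = 0.0049) and the calcineurin subunit Ppp3r1 (0.36, adjusted p = 0.00346). Those lower included the calcineurin subunit Ppp3ca (-0.53, adjusted p = 0.00314), the channel subunit Orai2 (-0.69, adjusted p = 0.00176) and the calcium sensor Stim1 (-0.58, adjusted p = 0.000807). Genes with related roles thus stood on both sides. With the donor block the counts were 4 higher and 4 lower, against 14.7% and 12.6% of all genes. The calls of Ppp3r1 (0.38, adjusted p = 0.0126) and Ppp3ca (-0.42, adjusted p = 0.017) were lost in it. In the model without naïve 4 the counts were 5 and 10, where 35.1% of all genes were called in either direction. The call of Rcan3 was lost under 11 of 26 alternatives, among them leaving out any 1 of the 8 activated libraries, and that of Orai1 when media 2, 3 or 4 or NaLac 1, 3 or 4 was left out. Both passed without naïve 4 (adjusted p = 2.34e-05 for Rcan3 and 5.27e-05 for Orai1). Both also passed with the donor block (adjusted p = 0.000328 and 0.000366). Against naïve cells, 5 of the 27 were higher and 11 lower in media, and 9 were higher and 11 lower in NaLac. Of all genes, 28.5% were higher and 29.0% lower in media than in naïve cells, and 33.0% and 32.0% in NaLac.

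Of 26 tested genes of the RAS-ERK-SRF route and the EGR co-repressors, 4 were higher and 4 lower in NaLac than in media, a share near the 25.1% called over all genes, with a median of 0.05. Elk4, a partner of serum response factor, was lower (-1.28 ± 0.19, adjusted p = 0.000325), as were the SRF coactivators Mrtfa (-0.42, adjusted p = 0.00633) and Mrtfb (-0.55, adjusted p = 0.00366) and the kinase ERK1, encoded by Mapk3 (-0.38, adjusted p = 0.00692). Hras (0.88 ± 0.13, adjusted p = 0.00026), the kinase Map2k2 (0.63 ± 0.10, adjusted p = 0.000586), the pathway inhibitor Spred2 (0.56 ± 0.13, adjusted p = 0.00427) and Nab1 (0.45 ± 0.11, adjusted p = 0.00667) were higher. Nab1 and Nab2 encode co-repressors of EGR proteins. The call of Nab1 was lost with the donor block (adjusted p = 0.0175) and under 10 of 26 alternatives in all, and that of Spred2 under 8, among them leaving out any 1 media library. The donor block called 4 higher and 2 lower, against 14.7% and 12.6% of all genes. The calls of Mrtfa (-0.37, adjusted p = 0.0164), Mrtfb (-0.56, adjusted p = 0.0116) and Mapk3 (-0.36, adjusted p = 0.0331) were lost in it. Against naïve cells, 7 of the 26 were higher and 4 lower in media, where 57.5% of all genes were called, and 11 were higher and 5 lower in NaLac, where 65.0% were. Nab2 was higher in both activated groups than in naïve cells (0.83 ± 0.14 in media, adjusted p = 0.000146, and 0.79 ± 0.14 in NaLac, adjusted p = 0.000163) and differed between them by -0.03 (95% interval -0.30 to 0.23).

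Tox (chr4:6686353-6991557, minus strand), which encodes a nuclear factor of the exhaustion programme, was slightly lower in NaLac. Its CPM was 58.5, 52.1, 66.4 and 25.4 in naïve cells, 61.6, 66.3, 66.7 and 71.9 in media and 49.6, 47.6, 56.1 and 57.9 in NaLac. Every NaLac library was below every media library, and naïve 4 was the lowest of all 12. NaLac was 1.26-fold below media (log2 -0.34 ± 0.22, 95% interval -0.76 to 0.09, adjusted p = 0.246, exact permutation p = 0.0286), and the difference was -0.42 within the low-numbered libraries and -0.33 within the high-numbered ones. Without naïve 4 the adjusted p was 0.0119. The model's spread covers all 12 libraries, and the SD was 35.2% of the mean CPM in naïve cells, 6.31% in media and 9.43% in NaLac. Of the exons of Tox, 3.42% overlap Gm11802 on the other strand, the only overlap with another gene among the 8, and whether the counting used strand is not stated. Of the relatives of these factors and partners of NR4A, Tox4, Rxra and Rxrb were tested and 0 of 3 were called between NaLac and media by edgeR, DESeq2 or limma voom, with 1 at an unadjusted p under 0.05. The donor block called 1 of 3 lower, Rxra (-1.09, adjusted p = 0.00521), where 12.6% of all genes were called lower. Rxra alone was called against naïve cells (log2 -4.00 in media and -4.88 in NaLac). Its mean was 59.7 CPM in naïve cells and only 3.72 in media and 2.01 in NaLac. Tox4 differed between NaLac and media by 0.06 (95% interval -0.18 to 0.29). Tox2 was not analysed here.

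Of 21 tested anergy and exhaustion genes tied to these factors, 2 were higher and 6 lower in NaLac than in media, against 13.9% and 11.1% of all genes, with a median of -0.37. With the donor block 4 were higher and 8 lower, against 14.7% and 12.6% of all genes. Those lower were led by Ikzf2, which encodes Helios (-1.62 ± 0.29, adjusted p = 0.00103), Ndrg1, a T cell anergy factor (-1.39 ± 0.25, adjusted p = 0.00103), and Cblb, a ubiquitin ligase that restrains T cell activation (-1.25 ± 0.31, adjusted p = 0.00745). Diacylglycerol kinases Dgka (-0.82, adjusted p = 0.00221) and Dgkz (-0.60, adjusted p = 0.00269) and the ligase Itch (-0.44, adjusted p = 0.00929) were also lower, and Itch lost the call with the donor block (-0.43, adjusted p = 0.019). Crtam, a surface receptor of activated CD8+ T cells, was higher (1.06 ± 0.16, adjusted p = 0.000385), as was the checkpoint receptor Havcr2 (2.12, adjusted p = 0.00336) at means of 2.77 CPM in NaLac and 0.623 in media, with overlap between the groups and a call lost under 6 of 26 alternatives. The call of Cblb was lost when any 1 of the 8 activated libraries was left out, with an adjusted p of up to 0.0261, and those of Ikzf2 and Ndrg1 were lost when the low-numbered libraries were taken alone. Cblb passed without naïve 4 (adjusted p = 2.34e-05) and with the donor block (adjusted p = 0.000202). Against naïve cells, 11 of the 21 were higher and 5 lower in media, and 10 were higher and 5 lower in NaLac, with 57.5% and 65.0% of all genes called in either direction.

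The genes nearest to each factor in profile were those with the smallest root mean square difference of log2 CPM, centred on each gene's mean, over the 12 libraries. For Tox it was Cd5, an inhibitory surface receptor, at 0.0774, against a median of 0.659 over all genes. Cd5 had 190 ± 67.3 CPM in naïve cells, 249 ± 14.9 in media and 193 ± 15.5 in NaLac (SD, n = 4). For Nfatc1 it was Gpalpp1 at 0.102 and for Nr4a2 Mex3c at 0.132. For Egr1 it was Rasd1 at 0.243, a RAS-related gene at 2.25 to 2.95 CPM in the group means. For Nr4a1 it was Cyp2r1 at 0.250, a weakly detected gene at 2.69 CPM in naïve cells, 0.546 in media and 0.413 in NaLac. For Egr3 it was Dnajb5 at 0.290, for Nr4a3 Ppp2r3a at 0.332 and for Egr2 Gpatch3 at 0.376. None of the 8 factors had another of them as its nearest gene: 75 genes lay nearer to Egr2 than Egr3 did, and 5170 lay nearer to Nr4a1 than Egr1, the closest of the factors to it.

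The order of the 8 genes per length differed between the groups. In naïve cells Nr4a1 was first, above Egr1 (142 ± 46.8 TPM) without overlap, and the neighbours from Egr1 down overlapped, ending with Tox at 22.5 ± 7.70 TPM. Without naïve 4 the last was Nr4a3 at 8.73 ± 1.95 TPM, and Tox, at 26.1 ± 3.66, was above Egr3 at 23.8 ± 3.15 (SD, n = 3). In media Egr1 (112 ± 59.0), Nfatc1 (100.2 ± 12.5), Nr4a1 (97.3 ± 14.5) and Nr4a3 (78.0 ± 25.7) led with overlapping neighbours. Nr4a2 (43.1 ± 3.51) was below Nr4a3 and above Tox (30.3 ± 1.07) without overlap, and Egr2 was last at 17.1 ± 11.3. In NaLac each gene overlapped its neighbours, from Egr1 (106 ± 39.0) and Nfatc1 (83.3 ± 13.3) through Nr4a3 (58.8 ± 21.6), Nr4a1 (56.6 ± 8.95), Egr3 (40.3 ± 12.6), Nr4a2 (37.5 ± 7.31) and Egr2 (29.9 ± 9.47) to Tox (21.8 ± 1.26).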

How the data were processed

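Poly(A) RNA libraries were made with a stranded kit from 12 samples of mouse CD8+ T cells. The authors demultiplexed reads with bcl2fastq 2.20.0.422, aligned them to GRCm38 with STAR 2.7.5b, used the same program against PCR duplicates, and counted reads with 1 mapping position in Ensembl exons with featureCounts. Versions are from the submitters' processing notes. The deposited values are raw counts per gene with gene lengths. Groups came from sample labels, and donors from donor tags, read separately for each library run.

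Counts were analysed in R 4.3.3 with edgeR 4.0.16 (TMM, genes with at least 1 CPM in 3 libraries, 1 quasi-likelihood model of 3 groups over 12 libraries without a block, two-sided, Benjamini-Hochberg over all tested genes, threshold 0.01). SE is the log2 fold change over the square root of F, and 95% intervals are 1.96 SE either side. The common dispersion was 0.0553. TPM used the table's lengths. Single values were tested by exact permutation over 70 arrangements, with log2 CPM at a prior count of 2. Family measures were adjusted over the 12 of one comparison. Media and NaLac libraries of one donor deviated together from their group means (correlations across genes of 0.374, 0.211 and 0.553), so the donor-blocked value is given beside each NaLac against media call of a named gene that it removes and each of the 8 factors that it adds. Alternatives used limma 3.58.1, DESeq2 1.42.0, other scalings, filters, blocks and samples. Coordinates and overlaps are from GENCODE M21, where 13765 of 13780 identifiers were found. By the authors' account the 4 replicates of a group are separate mice, and some media and NaLac libraries share a donor. The naïve libraries carry no donor tag, so whether they share mice with the activated ones is not known.

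The 8 genes and all gene lists were chosen with earlier results of these data known. Named besides them were 8 fixed relatives and regulators, up to 4 genes per list with the largest change between NaLac and media that passed, had at least 5 CPM and did not overlap, and the nearest gene of each factor. One gene that this rule names is not reported here. Ppp3r1, Ppp3ca, Orai2, Stim1, Mrtfa, Mrtfb, Mapk3, Dgka, Dgkz, Itch, Havcr2, Rxra, Rxrb and the immediate early genes were named after their values were seen. The family measures and the split of activated libraries by library run were added after the data had been seen.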

Additional observations from a re-analysis of the deposited data

Results flagged for a closer look

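In groups of 4, a library is noted where its gap to the nearest other library exceeds Dixon's 95% critical share of the range. Of 24 groups, 3 for each of the 8 genes, 4 met this. Chance gives about 1 in 20 for independent groups, but these all come from the same 12 libraries. The share of all genes flagged was not computed. Naïve 4 was the highest naïve library for Nr4a3 at 216 CPM (gap 0.970 of the range), for Egr3 at 111 CPM (0.887) and for Nfatc1 at 263 CPM (0.836). NaLac 2 was the lowest NaLac library for Nfatc1 at 149 CPM (0.902). Naïve 4 is the only naïve library of the high library run, and its part in these levels cannot be told apart from that of the run. With naïve 4 left out, Nr4a3 passed the test for both activated groups against naïve cells, and Egr3 for NaLac against naïve cells, as given above.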

How the results depend on the processing

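The call of Nr4a1 against naïve cells held under all 24 alternatives for each activated group. Between NaLac and media Nr4a1 stayed lower under all 26 alternatives, with an adjusted p of 0.000212 to 0.0494, at most 0.01 under 9. Egr2 and Egr3 each had an adjusted p of at most 0.01 under 1 of the 26, the donor block. Their highest adjusted p over the alternatives was 0.297 for Egr2 and 0.578 for Egr3. Members called between NaLac and media numbered 1 with the likelihood ratio test, with DESeq2, with total counts, with the 2 groups alone, at a threshold of 0.05 and in the low-numbered libraries alone (chosen after seeing the data), 2 with the title number as block, 3 with the donor as block, and 0 to 1 when 1 library was left out. Against naïve, media called 2 with the run as a term or at 0.05, 3 in the low run and 1 to 2 without 1 library, and NaLac called 2 in the low run and 1 to 3 without 1 library, the 3 being without naïve 4. Over all genes, NaLac against media called 5362 with the title number as block, 5461 at 0.05, 2056 in the low-numbered libraries and 2260 to 4830 without 1 library. Media against naïve called 9387 of all genes at 0.05 and 7158 to 8469 without 1 library. NaLac against naïve called 8282 to 9434 without 1 library. All-gene numbers are not given here for the likelihood ratio test, DESeq2, total counts, the 2 groups alone or the run as a term. They are also not given for the low run against naïve. The member counts under those settings therefore have no background beside them.

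Directions turned for some differences that did not pass in the main model. Egr1 against media in NaLac was -0.0931 with the donor block, -0.0763 with the run as a term, -0.16 in the low-numbered libraries and -0.18 to 0.45 without 1 library. Without 1 library, Nr4a2 in NaLac against media ran from -0.16 to 0.0781, Nfatc1 in media against naïve from -0.0429 to 0.23 and in NaLac against naïve from -0.18 to 0.11, Egr3 from -0.66 to 0.30 and from -0.12 to 0.84 in the same comparisons, and Egr2 in NaLac against naïve from -0.46 to 0.23. For Nfatc1, Egr3 and Egr2 the upper ends were those without naïve 4. Egr3 in media against naïve was 0.10 in the low-numbered libraries. Tox in NaLac against naïve was -0.03 with DESeq2 (-0.0315) and with its size factors (-0.0316), -0.000137 with the upper quartile, -0.34 in the low-numbered libraries and -0.16 to 0.21 without 1 library. The cause was not tested. The title numbers 2 and 3 join libraries of different donors, with correlations of 0.297 and 0.0038. With the replicate block by title number, Tox passed between NaLac and media (-0.33, adjusted p = 0.00612), as did Nr4a1 (adjusted p = 0.000212).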
